A study of Mus musculus with 9 samples.

Results

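The inflammasome and pyroptosis genes Nlrp3, Nlrc4, Aim2, Pycard, Casp1, Casp4, Gsdmd, Gsdme, Nek7 and Ninj1 were examined in BV2 cells, an immortalized mouse microglial line. They were taken by gene name, as genes with known roles in these processes, and all 10 were found among the 54532 genes of the expression table. RNA was sequenced from 3 groups of 3 libraries. The study addressed the part that lactylation of histones, above all of H3K9, plays in inflammatory microglia under oxygen-glucose deprivation (OGD), and inhibited the acetyltransferase P300 to lower that mark. Control cells were kept in complete medium with 10% serum. The OGD group was kept in low-glucose medium with 4% serum at 4% oxygen, for 24 h in the experiments that precede the transcriptome. The OGD + A-485 group also received A-485, an inhibitor of the P300 acetyltransferase, at 50 μM in those earlier experiments, and neither the time nor the dose is repeated for the sequenced cells. OGD and control thus differed in oxygen, glucose and serum together, whose parts cannot be told apart, and A-485 without OGD was not analysed here. All 9 libraries came from a single cell line, and the labels do not state that the libraries of a group came from separate cultures, so the p-values measure the spread between these libraries, which may be technical.

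Inflammasomes are protein platforms that assemble in the cytosol of macrophages and microglia when a sensor meets a microbial product or a sign of damage. A sensor such as NLRP3, NLRC4 or AIM2 recruits the adaptor ASC (Pycard), and the platform activates caspase-1, which cuts pro-interleukin-1β, pro-interleukin-18 and gasdermin D. The freed N-terminal part of gasdermin D forms pores in the plasma membrane, and ninjurin-1 then ruptures the membrane, a form of lytic death called pyroptosis. Most of these steps are set by protein cleavage and assembly, which RNA levels do not measure.

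Levels are given in FPKM, the number of fragments per length of the gene and per depth of the library. Each library held between 12593250 and 16091038 reads on genes, and 1 read on a gene of 1 kb was worth between 0.0618 and 0.0786 FPKM. Of 12 markers of microglia and macrophages, 12 had a mean of at least 1 FPKM over the 9 libraries. Aif1 reached this only through OGD + A-485 (2.57 FPKM), with 0.613 in control and 0.889 in OGD. The summed level of the 12 markers per library was 662 to 682 FPKM (control), 852 to 877 (OGD) and 1456 to 1499 (OGD + A-485). Called higher were 5 of the 12 with OGD (11.2% of all genes tested), 10 with A-485 (12.2%) and 12 between OGD + A-485 and control (17.0%). By limma or by limma-voom on the recovered reads, 0 were called lower (9.81%, 13.4% and 16.6% of all genes by limma). At an unadjusted p under 0.05, 1, 1 and 0 were lower. Under quantile normalization, Cd68, Fcer1g and Laptm5 lost their calls with A-485 (log2 fold changes 0.33, 0.43 and 0.47). Cd68 also lost its call against control (0.15). This rise of the lineage markers ran alongside every rise described here, and its part in them was not tested. The defining markers Aqp4 (astrocytes), Mog (oligodendrocytes), Cldn5 (endothelium) and Dcn (fibroblasts) were at 0 in every library. In such bulk RNA, more cells of a kind and more RNA per cell cannot be told apart.

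Of the 10 genes, 9 had a mean of at least 0.2 FPKM and were tested with limma, and Pycard was not. A gene was called at p under 0.01 with an absolute log2 fold change above 0.5, on the scale log2(FPKM + 0.1), which understates the change of low genes. With OGD, 2 of the 9 were called higher, Nlrp3 and Ninj1, where 11.2% of all genes tested were called higher. Of the 9, 0 were called lower (9.81% of all genes), by limma or by limma-voom, and 2 were lower at an unadjusted p under 0.05. With A-485 added to OGD, 2 of the 9 were called higher, Casp1 and Casp4 (12.2% of all genes), and 0 lower by either tool (13.4% of all genes), with 2 lower at an unadjusted p under 0.05. Between OGD + A-485 and control, all 4 of these genes were called higher (17.0% of all genes), and 0 were lower by either tool or at an unadjusted p under 0.05 (16.6% of all genes were called lower). Nlrp3 and Ninj1 had log2 fold changes of 0.25 and 0.09 with A-485, and Casp1 and Casp4 had -0.26 and 0.23 with OGD, all below the fold threshold. Whether a gene's 2 steps differed was not tested, and the comparisons share their OGD or control libraries and are not independent of each other.

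**Figure D1:**
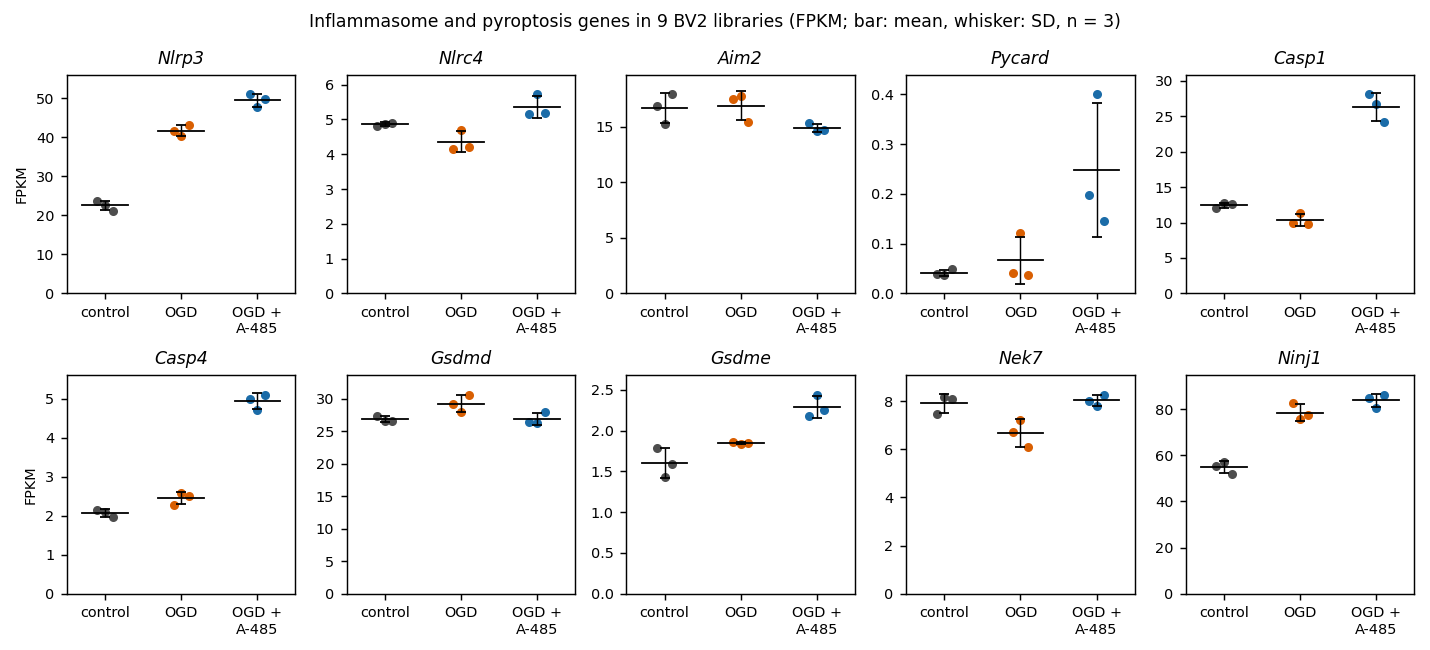
Level of each of the 10 genes in FPKM on a linear axis that starts at 0, with 1 point per library, the group mean as a bar and the SD as a whisker (n = 3 per group). Nlrp3 and Ninj1 rise from control to OGD, Casp1 and Casp4 stand higher in the OGD + A-485 libraries than in the other groups, and the Pycard panel spans only up to 0.4 FPKM.

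NLRP3 senses potassium efflux and other signs of cell damage, and in macrophages its gene is induced by inflammatory signals before the inflammasome can form. Nlrp3 (chromosome 11, 59541568 to 59566956, GRCm38, plus strand) was measured at 23.7, 22.7 and 21.2 FPKM in the control libraries, at 41.5, 40.3 and 43.1 in OGD and at 51.0, 47.7 and 49.7 in OGD + A-485. The 3 groups did not overlap in any comparison, and the lowest OGD library lay well above the highest control library. The mean rose from 22.5 ± 1.27 to 41.6 ± 1.41 FPKM with OGD (SD, n = 3), a log2 fold change of 0.88 (standard error 0.05, limma adjusted p = 3.01e-06), and it was called under 22 of 22 alternative settings. With A-485 the mean was 49.4 ± 1.69 FPKM, and the log2 fold change against OGD was 0.25 (95% interval 0.13 to 0.36, limma adjusted p = 0.00292), below the fold threshold and therefore not called. Against control the difference in OGD + A-485 was 1.13 (limma adjusted p = 2.2e-07). The reads behind these values ran from 1286 to 3054 per library.

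The upstream sequence of Nlrp3 is shown because the gene had the largest change with OGD of the 9 tested and its window holds letters of both a hypoxia and an inflammatory motif. RefSeq windows on GRCm38.p6, from 250 bases before to 50 after a transcript start, were searched on both strands for ACGTG (the core of the hypoxia response element), TGANTCA (AP-1), the IRF consensus, GAGGAA (PU.1 core) and the NF-κB consensus. Capitals mark the matches on either strand, at positions counted from the start. In the first Nlrp3 window (chr11:59541319-59541618, plus strand) these are an NF-κB consensus at position -186 and the reverse complement of ACGTG at -63. A second start of Nlrp3 has the PU.1 core at positions -220, -129 and -36.
Nlrp3: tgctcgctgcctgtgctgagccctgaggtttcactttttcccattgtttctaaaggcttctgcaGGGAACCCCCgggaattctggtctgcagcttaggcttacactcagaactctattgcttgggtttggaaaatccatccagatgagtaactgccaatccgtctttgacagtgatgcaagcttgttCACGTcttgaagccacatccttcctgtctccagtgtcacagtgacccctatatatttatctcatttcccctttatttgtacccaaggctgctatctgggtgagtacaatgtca
Over all 32817 windows, 19.6% held ACGTG, 7.81% AP-1, 3.43% the IRF consensus, 28.3% the PU.1 core and 4.5% the NF-κB consensus. Of the 9 genes with a window, 2 held ACGTG (Nlrp3 and Casp1) and 4 the PU.1 core (Nlrp3, Aim2, Pycard and Casp1). The NF-κB consensus was held by 2 (Nlrp3 and Casp4), and AP-1 or the IRF consensus by 0. Counted by window, as the shares are, ACGTG was in 2 of 11, the PU.1 core in 4 and the NF-κB consensus in 3. A match is a match of letters only, and binding was not measured in these libraries.

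NLRC4 responds to bacterial flagellin and secretion system proteins that NAIP receptors bind. Nlrc4 (chromosome 17, 74425438 to 74459142, minus strand) was at 4.80, 4.88 and 4.91 FPKM in control, at 4.15, 4.71 and 4.22 in OGD and at 5.15, 5.72 and 5.18 in OGD + A-485. The OGD libraries were the lowest and the OGD + A-485 libraries the highest, without overlap. The spread was narrow and the differences were small, with log2 fold changes of -0.16 with OGD (limma adjusted p = 0.106) and 0.29 with A-485 (limma adjusted p = 0.00798), neither of which was called. With the median of the 50 neighbouring genes removed, the second became 0.51 and was called.

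AIM2 binds double-stranded DNA in the cytosol. Aim2 (chromosome 1, 173350879 to 173466040, plus strand) was at 16.9, 15.2 and 17.9 FPKM in control, at 17.5, 17.8 and 15.4 in OGD and at 15.3, 14.6 and 14.7 in OGD + A-485. Control and OGD overlapped, with a log2 fold change of 0.02 whose 95% interval ran from -0.15 to 0.18 (limma adjusted p = 0.87), and the sign turned under library totals (-0.03) and with neighbours removed (-0.20). The OGD + A-485 libraries lay just below those of OGD (log2 fold change -0.18, limma adjusted p = 0.0665) and overlapped control.

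ASC, the product of Pycard, joins the sensor to caspase-1 through its pyrin and CARD domains. Pycard (chromosome 7, 127989708 to 127993867, minus strand) was at the edge of detection in all 3 groups. It had 2, 2 and 3 reads in the control libraries, 2, 6 and 2 in OGD and 11, 24 and 8 in OGD + A-485, at most 0.4 FPKM in any library. Control and OGD overlapped, and the OGD + A-485 libraries lay above both, with 1 of them holding more than the other libraries of its group together. Summed over libraries and scaled to depth, the reads were 3.82 times those of OGD (95% exact conditional interval 1.89 to 8.52) and 6 times those of control (2.68 to 15.8), intervals that cover counting error only. In a fit without the filter on low values, the log2 fold change was 1.03 against OGD (limma adjusted p = 0.0423, not called) and 1.23 against control (limma adjusted p = 0.0169, called). Pycard overlaps Gm45205 on the opposite strand, which had 3, 5 and 27 reads in the 3 groups. Use of strand in the counting is not stated, so reads from the stretch that the 2 genes share cannot be told apart. The upstream window (chr7:127993818-127994117, minus strand, written 5′ to 3′) is shown because Pycard was the one gene of the set near 0, and its only match, in capitals, is the reverse complement of the PU.1 core at position -42.
Pycard: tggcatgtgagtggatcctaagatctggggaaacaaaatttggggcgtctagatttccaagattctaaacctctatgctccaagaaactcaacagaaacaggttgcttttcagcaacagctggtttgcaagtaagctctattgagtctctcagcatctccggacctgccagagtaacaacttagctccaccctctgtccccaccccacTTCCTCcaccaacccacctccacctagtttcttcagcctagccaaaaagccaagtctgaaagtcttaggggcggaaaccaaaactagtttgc

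**Figure D2:**
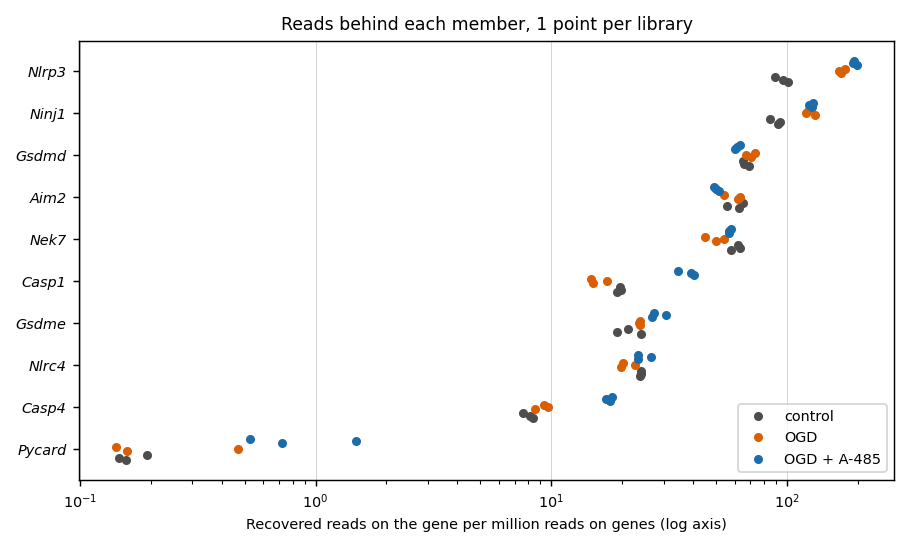
Reads on each gene scaled to the reads of the library, on a log axis, with 1 point per library and colours for the 3 groups. Pycard lies between 0.143 and 1.49 on this scale, and the other 9 genes lie to its right in every library.

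Caspase-1 is the protease of the canonical inflammasome, and caspase-4 (the mouse protein long called caspase-11) binds bacterial lipopolysaccharide in the cytosol and also cuts gasdermin D. Casp1 and Casp4 rose together when A-485 was added to OGD. The genes lie side by side on chromosome 9, Casp1 from 5298517 to 5307265 and Casp4 from 5308828 to 5336783, both on the plus strand and 1562 bases apart. Casp12, a caspase gene of the same cluster, was listed at 0 reads in all libraries.

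Casp1 was measured at 12, 12.7 and 12.6 FPKM in control, at 9.92, 11.4 and 9.78 in OGD and at 28.1, 26.7 and 24.2 in OGD + A-485. Every OGD library was below every control library, and every OGD + A-485 library was above both groups. With A-485 the mean rose from 10.4 ± 0.892 to 26.3 ± 1.99 FPKM (SD, n = 3), a log2 fold change of 1.34 (standard error 0.07, limma adjusted p = 1.32e-06). It also stood above control, by 1.07 (limma adjusted p = 2.78e-06). With OGD alone the log2 fold change was -0.26 (95% interval -0.43 to -0.10, limma adjusted p = 0.0174), which did not reach the fold threshold.

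Casp4 was at 2.14, 2.10 and 1.96 FPKM in control, at 2.27, 2.57 and 2.51 in OGD and at 5, 4.71 and 5.10 in OGD + A-485. The OGD libraries lay just above those of control, and the OGD + A-485 libraries stood apart from both. With A-485 the mean rose from 2.45 ± 0.16 to 4.94 ± 0.204 FPKM (SD, n = 3), a log2 fold change of 0.98 (standard error 0.08, limma adjusted p = 1.38e-05). With OGD alone the log2 fold change was 0.23 (95% interval 0.05 to 0.42, limma adjusted p = 0.0435), which was not called and had the opposite sign to that of Casp1. The 50 neighbouring genes had a median of 0.10 with A-485, and with it removed the changes of Casp1 and Casp4 were 1.24 and 0.89.

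The upstream windows of the caspase genes are shown because they rose together and share a neighbourhood. In that of Casp1 (chr9:5298267-5298566, plus strand), the capitals mark ACGTG on both strands, overlapping at positions -137 and -136, and the reverse complement of the PU.1 core at -108. In that of Casp4 (chr9:5308599-5308898, plus strand), they mark overlapping matches to the NF-κB consensus at positions -93 and -92.
Casp1: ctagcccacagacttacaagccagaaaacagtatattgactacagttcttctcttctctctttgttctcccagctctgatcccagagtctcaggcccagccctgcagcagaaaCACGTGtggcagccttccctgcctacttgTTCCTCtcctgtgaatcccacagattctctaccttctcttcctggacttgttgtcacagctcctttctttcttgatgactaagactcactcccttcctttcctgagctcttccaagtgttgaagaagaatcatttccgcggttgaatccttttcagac
Casp4: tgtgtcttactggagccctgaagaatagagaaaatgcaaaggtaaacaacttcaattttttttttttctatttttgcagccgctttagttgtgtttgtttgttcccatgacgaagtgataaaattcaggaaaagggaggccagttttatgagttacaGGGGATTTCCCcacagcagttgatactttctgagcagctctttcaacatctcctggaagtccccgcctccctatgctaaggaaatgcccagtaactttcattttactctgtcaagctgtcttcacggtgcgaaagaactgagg
No motif of the 5 searched was found in both windows.

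Gasdermin D is the pore-forming substrate of caspase-1 and caspase-4. Gsdmd (chromosome 15, 75862327 to 75867408, plus strand) was at 27.4, 26.6 and 26.5 FPKM in control, at 29.2, 27.9 and 30.6 in OGD and at 26.4, 26.3 and 27.9 in OGD + A-485. OGD lay slightly above control without overlap (log2 fold change 0.12, limma adjusted p = 0.0494), and OGD + A-485 overlapped both. Its log2 fold change against OGD was -0.12 (limma adjusted p = 0.047). Against control it was 0.00 with a 95% interval of -0.10 to 0.10 (limma adjusted p = 0.988), which became -0.11 under library totals. With neighbours removed, Gsdmd had 0.42 with OGD, -0.19 with A-485 and 0.22 between OGD + A-485 and control, none of them called. Gsdmd was called in 0 of the 3 comparisons.

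Gasdermin E is a relative of gasdermin D that also forms pores once it is cut. Gsdme (chromosome 6, 50188888 to 50263862, minus strand) was at 1.79, 1.43 and 1.59 FPKM in control, at 1.86, 1.83 and 1.85 in OGD and at 2.18, 2.44 and 2.25 in OGD + A-485. The groups followed in that order without overlap. The log2 fold changes were 0.19 with OGD (limma adjusted p = 0.176), 0.30 with A-485 (limma adjusted p = 0.0455) and 0.49 between OGD + A-485 and control (standard error 0.11, limma adjusted p = 0.00366). The last fell just short of the fold threshold, and it was called under 5 of the 22 alternatives, at 0.50 to 0.57. Gsdme overlaps Mpp6 on the opposite strand, which had 1692 to 2860 reads per library against 260 to 492 for Gsdme, so some of its reads are uncertain.

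Ninjurin-1 clusters in the plasma membrane and ruptures it late in lytic death. Ninj1 (chromosome 13, 49187485 to 49196244, plus strand) had the highest level of the 10 genes, at 55.5, 57.0 and 52.0 FPKM in control, 82.5, 75.6 and 77.6 in OGD and 84.7, 80.5 and 86.3 in OGD + A-485. All OGD libraries were above all control libraries, and the OGD and OGD + A-485 libraries overlapped. The mean rose from 54.8 ± 2.54 to 78.6 ± 3.55 FPKM with OGD (SD, n = 3), a log2 fold change of 0.52 (standard error 0.05, 95% interval 0.40 to 0.63, limma adjusted p = 4.65e-05). This lies at the fold threshold, and the call was lost under library totals (0.47), with neighbours removed (0.48), and without control replicate 3 or OGD replicate 1 (0.48 each). With A-485 the difference from OGD was 0.09 (95% interval -0.02 to 0.21, limma adjusted p = 0.153). It ranged from -0.05 under quantile normalization to 0.46 with neighbours removed, and was called under 0 of the 22 alternatives. The difference between OGD + A-485 and control was 0.61 (limma adjusted p = 8.11e-06). It was 0.50 under library totals and 0.48 under quantile normalization, where it was not called. With neighbours removed it was 0.94 and called.

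NEK7 is a kinase that binds NLRP3 and bridges its subunits during assembly. Nek7 (chromosome 1, 138482875 to 138620141, minus strand) was at 7.47, 8.18 and 8.10 FPKM in control, at 6.72, 7.24 and 6.08 in OGD and at 8.01, 7.82 and 8.27 in OGD + A-485. The OGD libraries lay below those of both other groups, which overlapped. The log2 fold changes were -0.24 with OGD (95% interval -0.41 to -0.08, limma adjusted p = 0.0206) and 0.27 with A-485 (95% interval 0.10 to 0.43, limma adjusted p = 0.0125), and neither was called.

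**Figure D3:**
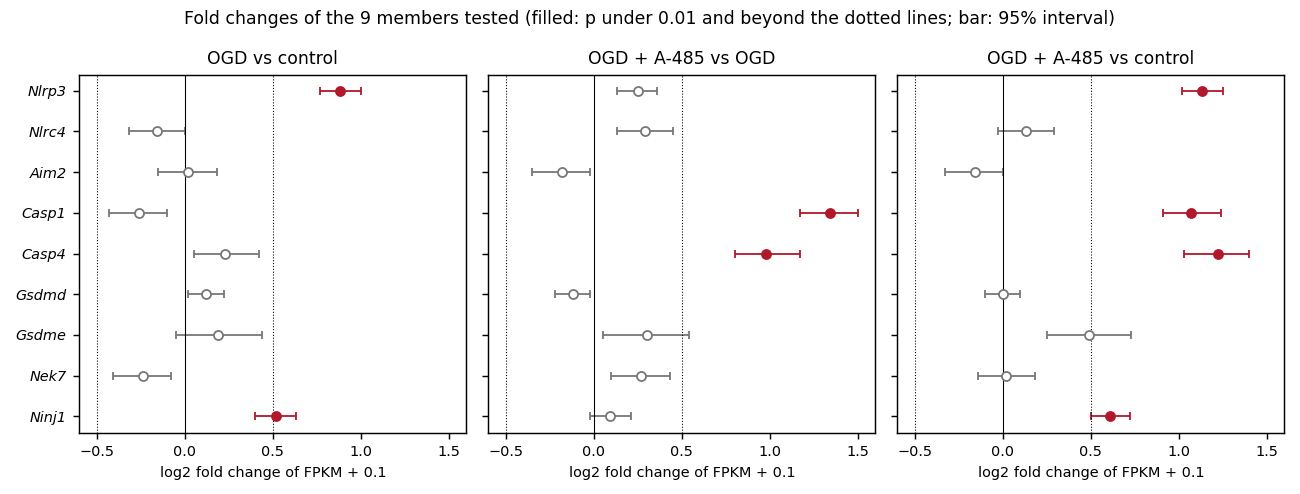
Log2 fold change of FPKM + 0.1 of the 9 genes tested, with 95% intervals as bars, in the 3 comparisons. Filled points, which are called, are Nlrp3 and Ninj1 with OGD, Casp1 and Casp4 with A-485, and all 4 between OGD + A-485 and control, and the dotted lines mark the fold threshold of 0.5.

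By the wider criterion of a limma adjusted p under 0.05, 6 of the 9 genes differed with OGD (45.3% of all genes), 7 with A-485 (49.8%) and 5 between OGD + A-485 and control (56.6%). The libraries of the groups did not overlap for 5 genes that were higher with OGD (28.0% of all genes) and 3 that were lower (27.5%). With A-485 they did not overlap for 6 that were higher (28.5%) and 1 that was lower (28.3%), and between OGD + A-485 and control for 6 that were higher (31.8%) and 0 that were lower (32.0%). The median log2 fold change of the 9 genes was 0.12 with OGD, 0.27 with A-485 and 0.49 between OGD + A-485 and control, against 0.01, 0.01 and 0.02 over all genes tested.

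Ordered by level in control, the genes ran Ninj1, Gsdmd, Nlrp3, Aim2, Casp1, Nek7, Nlrc4, Casp4, Gsdme and Pycard, with no overlap between neighbours in the order. In OGD, Nlrp3 stood above Gsdmd (41.6 against 29.2 FPKM). In OGD + A-485, Casp1 stood above Aim2 (26.3 against 14.9 FPKM) and its libraries overlapped those of Gsdmd (26.9 FPKM). These levels are per length of all exons of a gene. That length is 5.09 times the principal transcript for Gsdme, 2.59 times for Casp4 and 1.33 times for Gsdmd. Per length of the principal transcript, the control levels of Gsdme and Casp4 were 8.18 and 5.35 FPKM, above the 4.86 of Nlrc4. On that same length Gsdmd was at 35.6 FPKM in OGD + A-485, above the 26.3 of Casp1.

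Among genes averaging 1 FPKM or more, those whose pattern over the 9 libraries lay nearest to Nlrp3 were Impa2, Tnfrsf1b, which encodes TNF receptor 2, and Lasp1. Their root mean square distances in centred log2(FPKM + 0.1) were 0.0591, 0.0592 and 0.0662. For Casp1 they were Pon3 (0.0776), Ppp1r12b (0.0843) and Il1rl1 (0.09), which encodes the interleukin-33 receptor. For Gsdmd they were Cct2 (0.041), Prpf6 (0.043) and Dnajb6 (0.0431), genes of protein folding and splicing that are active in most cells.

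The other genes of the pathway were taken from a list of 96 written by role. Of these, 94 were found and 76 were tested. With OGD, 18 of the 76 were called higher (11.2% of all genes tested) and 11 lower (9.81%). With A-485, 18 were higher (12.2%) and 10 lower (13.4%), and between OGD + A-485 and control 24 were higher (17.0%) and 9 lower (16.6%). The medians of the 76 log2 fold changes were 0.15, 0.18 and 0.21.

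Of the 3 cytokine genes of the pathway, Il1b and Il1a rose with OGD, and with A-485 Il1a rose and Il18 fell. Il1b, the main substrate of caspase-1, was at 3.89, 2.69 and 2.78 FPKM in control, at 10.4, 10.4 and 12 in OGD and at 13.2, 13.1 and 13.9 in OGD + A-485. It rose with OGD by 1.79 on the log2 scale (standard error 0.13, limma adjusted p = 9.36e-06), and with A-485 the log2 fold change was 0.29 (limma adjusted p = 0.0902), without overlap between the libraries. Il18, the other substrate, was at 4.14, 3.06 and 2.40 FPKM in control, at 3.20, 4.40 and 4 in OGD and at 1.26, 1.90 and 1.88 in OGD + A-485. Control and OGD overlapped (0.29, limma adjusted p = 0.343), and with A-485 Il18 fell by 1.16 on the log2 scale (limma adjusted p = 0.00236), on 19 to 59 reads per library. Il18 overlaps Bco2 on the opposite strand. Il1a, an alarmin that is released when the membrane breaks, had means of 1.08 ± 0.0708 FPKM (control), 6.54 ± 1.39 (OGD) and 19.9 ± 1.15 (OGD + A-485), and both steps, 2.47 and 1.61 on the log2 scale, were called. Il1rn, the antagonist of the interleukin-1 receptor, moved the opposite way with A-485, from 33.9 ± 1.2 FPKM (SD, n = 3) up to 59.8 ± 0.366 with OGD and down to 26.6 ± 1.78 with A-485.

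Among 31 genes tested for priming, triggers and licensing, 4 were called higher (11.2% of all genes) and 7 lower (9.81%) with OGD, and 11 higher (12.2%) and 1 lower (13.4%) with A-485. Tlr2, a receptor for bacterial lipoproteins that primes Nlrp3, had 13.4 ± 0.223 FPKM (SD, n = 3) in the control libraries, 8.84 ± 0.35 under OGD and 47.5 ± 0.399 once A-485 was added. Its log2 fold changes were -0.59 with OGD (limma adjusted p = 6.12e-06) and 2.41 with A-485 (limma adjusted p = 3.46e-09). Myd88, the adaptor of Toll-like receptors, fell by 1.03 on the log2 scale with OGD, and its log2 fold change with A-485 was 0.22. Txnip, which has been reported to bind NLRP3 under oxidative stress, rose in both steps, from 65.5 to 130 and then to 192 FPKM, and the call of the second step (0.56) was lost under library totals (0.49) and quantile normalization (0.42).

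P2rx4, an ATP-gated channel of the same list, had log2 fold changes of 0.80 with OGD and 0.58 with A-485, both called, the second of which was 0.41 and not called with neighbours removed. Panx1, a channel that releases ATP, had -0.59 with OGD and 0.96 with A-485, and the first was lost with a pseudocount of 1 (-0.41) and without control replicate 1 (-0.47). The other channel genes tested were added after their values were seen. P2rx7, the ATP-gated channel best known upstream of NLRP3, had -0.03 with OGD and 0.40 with A-485, and Kcnk6, a potassium channel, had -0.09 and 0.32, none of them called. Clic1, a chloride channel, was called higher with OGD (0.72, then 0.08 with A-485). Lrrc8a, a subunit of volume-regulated anion channels, was called lower with A-485 (0.28 with OGD, then -0.60). That call was lost with a pseudocount of 1 (-0.45) and without OGD + A-485 replicate 3 (-0.50).

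Lower with OGD and higher with A-485 were Dhx33, a helicase placed upstream of NLRP3 (-0.55 and 0.54), Irgm1, an interferon-induced GTPase (-0.83 and 0.65), and Irf2, a transcription factor that is known to drive Gsdmd expression (-0.56 and 0.66). With a pseudocount of 1, the calls of Dhx33 in both steps (-0.50 and 0.49), of Irgm1 with A-485 (0.44) and of Irf2 with OGD (-0.44) were lost. That of Dhx33 with A-485 was also lost under library totals (0.48) and with neighbours removed (0.34), and that of Irf2 with OGD without OGD replicate 3 (-0.49). The 3 levels of Irf2 were 4.12, 2.78 and 4.44 FPKM, and those of Gsdmd were 26.8, 29.2 and 26.9 FPKM.

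Of 13 other sensor genes tested, 4 were called higher (11.2% of all genes) and 2 lower (9.81%) with OGD, and 2 higher (12.2%) and 2 lower (13.4%) with A-485. By the rule only Naip1, a receptor that acts with NLRC4, was named, with 0.53 and -0.58 on the log2 scale. The first was called under 16 of 22 alternatives, and was lost without control replicate 3 (0.45) or OGD replicate 2 (0.46). The second was -0.27 with neighbours removed (limma adjusted p = 0.107) and -0.41 with a pseudocount of 1, and not called under either. Its near-identical relatives make the split of its reads uncertain. Nlrp1a and Nlrp1b, sensors of protease damage that are close copies of each other, were chosen after their values were seen. They had log2 fold changes of 1.72 and 1.60 with A-485 and were not called with OGD. Nlrp10, chosen in the same way, went down from 1.02 ± 0.142 to 0.0536 ± 0.0276 FPKM with A-485 (SD, n = 3), which left 2 to 6 reads per library.

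Among the other caspase genes, Casp6, an effector caspase of apoptosis, rose with OGD and fell with A-485. Its mean was 3.5 ± 0.47 FPKM (SD, n = 3) in the control libraries, 5.12 ± 0.299 under OGD and 3.23 ± 0.281 once A-485 was added, on 250 to 395 reads per library. The log2 fold changes were 0.54 (limma adjusted p = 0.0034) and -0.65 (limma adjusted p = 0.00108). The first was called under 18 of 22 alternatives and was 0.44 without control replicate 3. Casp8, which links death receptors to the inflammasome and was added after its values were seen, had 0.25 and 0.19 and was not called.

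**Figure D4:**
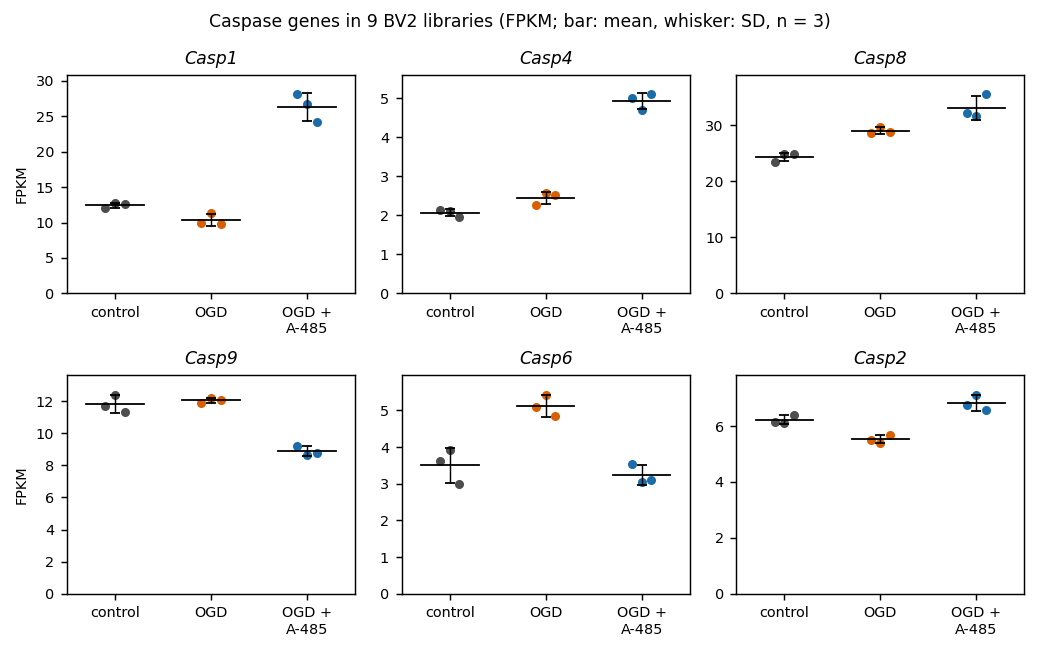
Levels of 6 caspase genes in FPKM on linear axes that start at 0, with 1 point per library, the mean as a bar and the SD as a whisker (n = 3). Casp1 and Casp4 stand well above the other groups in OGD + A-485, at means of 26.3 and 4.94 FPKM, and Casp6 is highest in OGD, at 5.12 FPKM.

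Among 18 tested genes for brakes on the pathway and for membrane repair, 5 were called higher (11.2% of all genes) and 1 lower (9.81%) with OGD, and 2 higher (12.2%) and 3 lower (13.4%) with A-485. Serpinb1a, an inhibitor of neutrophil proteases that also restrains caspase-1, had 6.26 ± 0.837 FPKM (SD, n = 3) in the control libraries, 9.42 ± 0.94 under OGD and 0.24 ± 0.0906 once A-485 was added, and it fell by 4.84 on the log2 scale in that last step (limma adjusted p = 2.41e-07). It went down to 5 to 12 reads per library, and any relation to the rise of Casp1 RNA was not tested. Tnfaip3, the ubiquitin-editing enzyme A20, rose in both steps (1.97 and 0.55), the second of which was 0.49 and not called under library totals. Ptpn22, a phosphatase, rose by 1.11 with OGD and had -0.95 with A-485. Serpinb9, a granzyme B inhibitor, fell by 1.11 on the log2 scale with OGD, a call that was lost in a fit of only the groups compared and without control replicate 2 or 3. Of 5 necroptosis genes, Mlkl, the pore former of that pathway, had 0.55 with OGD and -0.81 with A-485, both called, the first of which was 0.50 and not called under library totals. Ripk3, the kinase that activates it, was chosen after its values were seen and had 2.42 with A-485, on 6 to 14 reads per OGD library and 58 to 85 per OGD + A-485 library.

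**Figure D5:**
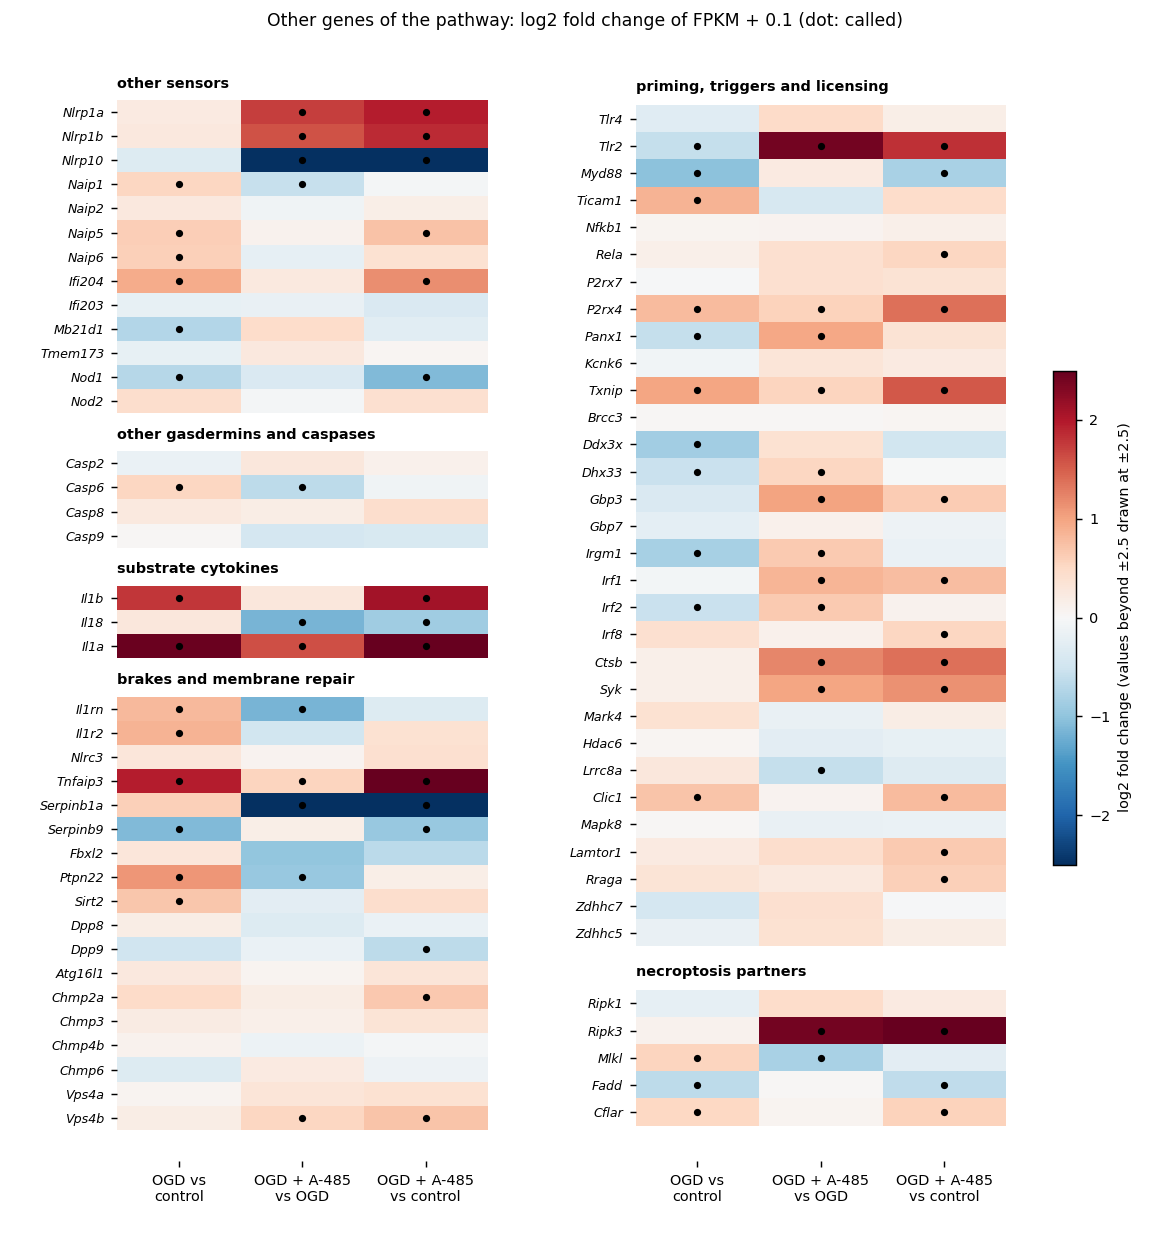
Log2 fold change of FPKM + 0.1 of the other pathway genes tested and reported here, by role, in the 3 comparisons, with red for higher, blue for lower, colours limited at ±2.5 and a dot on each call. Tlr2 and Ripk3 are dark red and Serpinb1a and Nlrp10 dark blue with A-485, and the column for OGD holds 18 dots for higher and 11 for lower genes.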

How the data were processed

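Total RNA of BV2 cells was sequenced, and the labels gave 3 groups of 3 libraries. The submitters' processing notes name GRCm38 and mm10, and the methods of the study name featureCounts 1.5.0-p3 for counting. The aligner is not given in the sources used here. The authors deposited FPKM, computed from gene length and read count, for 54532 genes. Multiplying the deposited FPKM by gene length and by a divisor for each library gave whole reads for 100% of values above 0 (tolerance 0.05), and these recovered reads were used for limma-voom and for depth. The divisor already carries a median-of-ratios scaling. Of 54409 identifiers shared with GENCODE M21, 98.3% had equal coordinates, among them the 10 genes of the set.

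The fit used limma 3.58.1 under R 4.3.3 on log2(FPKM + 0.1) of the 16123 genes that averaged 0.2 FPKM or more, with 1 mean for each group over 9 libraries, a trended prior variance and Benjamini-Hochberg adjustment over all genes tested. With 3 libraries against 3, an exact permutation test of a single gene cannot go below p = 0.1 and was not used. Calls required an unadjusted p under 0.01 with an absolute log2 fold change above 0.5, the thresholds of the study. Pathway genes averaging 1 FPKM or more were named where called with OGD and with A-485, or where among the 2 largest rises or falls of a comparison, along with Il1b and Il18. Some genes that this rule names are not reported here. The genes of the set and the lists were chosen with earlier results of these data known. Libraries of the same group differed beyond sampling error (chi-square over degrees of freedom 2.67 to 5.24), so none was counted as a repeated sequencing of another. This does not tell separate cultures from separate preparations of 1 culture. Promoters were read from RefSeq. Other steps ran in Python 3.11.15 (scipy 1.17.1; numpy 2.4.6; matplotlib 3.10.9; pandas 2.3.3). As alternatives, the pseudocount was set to 1 or 0.01, the minimum mean was raised to 1 FPKM, and the following were tried: the unfiltered table, median-of-ratios rescaling, library totals, quantile normalization, separate fits for the groups compared, a block for the replicate number, an untrended prior, limma-voom, an adjusted p under 0.05, subtraction of the median over 50 neighbours on the chromosome, and leaving out each library.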

Additional observations from a re-analysis of the deposited data

How the results depend on the processing

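The number of genes of the set called higher with OGD was 2, and it was 1 under library totals, 1 with the median of 50 neighbours removed, and 1 to 2 with each library left out, where Ninj1 lost its call without control replicate 3 or OGD replicate 1. Nlrp3 with OGD and Casp1 and Casp4 with A-485 were called under 22 of 22 alternatives each. The number called higher with A-485 was 2 with each library left out, and between OGD + A-485 and control it was 4 to 5. Of the 27 log2 fold changes of the set, 4 turned their sign under some alternative, each of them at most 0.09 in size as reported. Aim2 with OGD was -0.03 under library totals, -0.20 with neighbours removed, and -0.05 to 0.08 with each library left out, below 0 without control replicate 2, OGD replicate 1 (-0.01) or OGD replicate 2 (-0.02). Gsdmd between OGD + A-485 and control was -0.11 under library totals, -0.05 under quantile normalization and 0.22 with neighbours removed. With each library left out it was -0.03 to 0.02, below 0 without control replicate 2 or 3 (-0.01 each) or OGD + A-485 replicate 3. Nek7 in that comparison was -0.09 under library totals, -0.12 with neighbours removed and -0.02 to 0.05 with each library left out, below 0 without control replicate 1. Ninj1 with A-485 was -0.05 under quantile normalization and 0.46 with neighbours removed. The cause was not tested. Library totals moved the split of all calls between OGD + A-485 and control to 2253 higher and 3350 lower, 40.2% higher against 50.6%. Median-of-ratios rescaling repeats the scaling already in the deposited values and shows no stability.

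Deviations of libraries with the same replicate number correlated at -0.0463 to 0.0386 over genes, and those with different numbers at -0.0599 to 0.0545. No effect shared by a replicate number was seen, which cannot show whether such libraries were prepared together. With the replicate number as a block, the genes of the set called higher numbered 2, 2 and 4 in the 3 comparisons, as without it.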
